A study of Mus musculus with 14 samples.

Results

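Fatty acid oxidation genes were examined in mouse haematopoietic stem cells (HSCs), the cells of the bone marrow that give rise to all blood lineages. The list held 37 genes, out of 48714 gene labels joined across the libraries. It was drawn up by function: enzymes that activate fatty acids or carry them into the mitochondrion (8 genes), enzymes grouped here as mitochondrial beta-oxidation (20), enzymes of peroxisomal beta-oxidation (4) and the PPAR nuclear receptors with their PGC-1 coactivators (5). Acad11 and Eci2 were counted as mitochondrial, and the location of single enzymes in the cell was not examined. Each gene was matched by its symbol, or by its symbol with a copy number, taking the copy with the highest mean. All 37 were listed. The libraries were made from HSCs of C57BL/6 mice sorted by intracellular calcium. The calcium-high group ([Ca2+]high) and the calcium-low group ([Ca2+]low) each had 7 libraries, numbered 1 to 7, of 100 cells each. The labels give no age, sex, treatment, sort gate or animal of origin. P-values below therefore measure only the spread between these libraries, which may be technical. In such bulk samples, fewer cells of a type and less RNA per cell cannot be told apart.

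Beta-oxidation shortens fatty acids step by step to acetyl-CoA, and feeds electrons to the respiratory chain. Long chains are first joined to coenzyme A by acyl-CoA synthetases, then passed through the mitochondrial membranes by the carnitine shuttle, made up of carnitine palmitoyltransferase 1, a carnitine-acylcarnitine carrier and carnitine palmitoyltransferase 2. Each turn of the cycle then uses an acyl-CoA dehydrogenase, a hydratase, a hydroxyacyl-CoA dehydrogenase and a thiolase, and peroxisomes run a parallel cycle for very long and branched chains. In mouse HSCs, fatty acid oxidation and the receptor PPAR delta are known as part of the metabolic state tied to stem cell maintenance, and calcium is known to activate several dehydrogenases of the mitochondrial matrix.

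Levels are given as RPKM, reads scaled by the length of the gene model and by the library total. Reads in listed genes came to 3.58 to 7.39 M per library for replicates 1 to 3, and 8.28 to 10.3 M for replicates 4 to 7. For a gene model of 1 kilobase, 3 reads, the most that a count of 0 allows by counting error alone, correspond to 0.0808 to 0.210 RPKM. Of the 11 HSC markers, all were above the level needed for testing, and they summed to 149 to 239 RPKM in calcium-high libraries, against 147 to 230 RPKM in calcium-low libraries. Single markers lay apart within these sums. Vwf averaged 17.3 RPKM in calcium-high, against 4.87 RPKM in calcium-low libraries, while Cd34 averaged 22.6 RPKM in calcium-high, against 44.95 RPKM in calcium-low libraries. Limma blocked by replicate number called 6 of the 11, against 0.917% of all genes. Vwf, Slamf1, Procr and Fgd5 were higher and Cd34 and Flt3 lower in calcium-high (limma adjusted p of 0.0272 to 0.0364). Without the block it called 0 of the 11, and 0% of all genes. Some libraries held more of other cells' markers than the rest, calcium-low replicate 3 by the widest margin. Its summed level of 9 neutrophil markers was 766 RPKM, against 77.3 RPKM or less in the other 13 libraries, and its summed level of 9 erythroid markers was 336 RPKM, against 229.9 RPKM or less. The 77.3 RPKM belong to calcium-high replicate 7. For monocytes and macrophages, 6 markers summed to 1.09 to 36.8 RPKM in calcium-high libraries, the highest in replicate 5, against 1.84 to 5.57 RPKM in calcium-low libraries. For T and NK cells, 5 markers summed to 3.46 to 18.3 RPKM in calcium-high, against 11.6 to 33.3 RPKM in calcium-low libraries. Nkg7 averaged 9.74 RPKM in calcium-high, against 19.7 RPKM in calcium-low libraries. It was higher in calcium-high in 0 of 7 pairs (limma adjusted p = 0.293, and 0.0514 with the block). Sums of 5 megakaryocyte markers ran from 13.4 to 30.8 RPKM in calcium-high, against 15.5 to 32.4 RPKM in calcium-low libraries. For 5 B cell markers no sum passed 6.27 RPKM. The part of these cells in the results was not tested. For adipocytes and stroma, 8 markers summed to 0.0364 to 0.312 RPKM in calcium-high libraries, against 0.0453 to 0.326 RPKM in calcium-low libraries, with Plin1 at 0 in all.

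HSCs of both groups carried transcripts for every step of mitochondrial beta-oxidation. All 20 mitochondrial genes, 7 of 8 activation and import genes and 3 of 4 peroxisomal genes had a mean of 1 RPKM or more over the 14 libraries, against 1 of 5 regulators. Per length, the highest mean levels were those of Hadh (14.7 RPKM), Hsd17b10 (13.9), Cpt1a (12.9), Etfb (11.2) and Acsl5 (10.5). The lowest mitochondrial means were those of Acad10 (2.78 RPKM), Acad11 (3.02) and, at 1 of its 2 listed copies of the same length, Acadvl (3.31). Summed over both copies Acadvl was at 6.43 ± 0.529 RPKM in calcium-high, against 6.65 ± 1.07 RPKM in calcium-low libraries, and the third lowest was then Decr1 (3.33 RPKM). The 37 genes summed to 197 ± 14.2 RPKM in calcium-high, against 205 ± 31.7 RPKM in calcium-low libraries (mean ± SD, n = 7 each, as for values with ± below where no SE is stated). These sums ran from 180.5 to 223.9 RPKM in calcium-high libraries, against 172 to 251 RPKM in calcium-low libraries, so the groups overlapped. Mitochondrial genes made up most of the sum, at 134 ± 10.7 RPKM in calcium-high, against 142 ± 24.6 RPKM in calcium-low libraries.

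**Figure D1:**
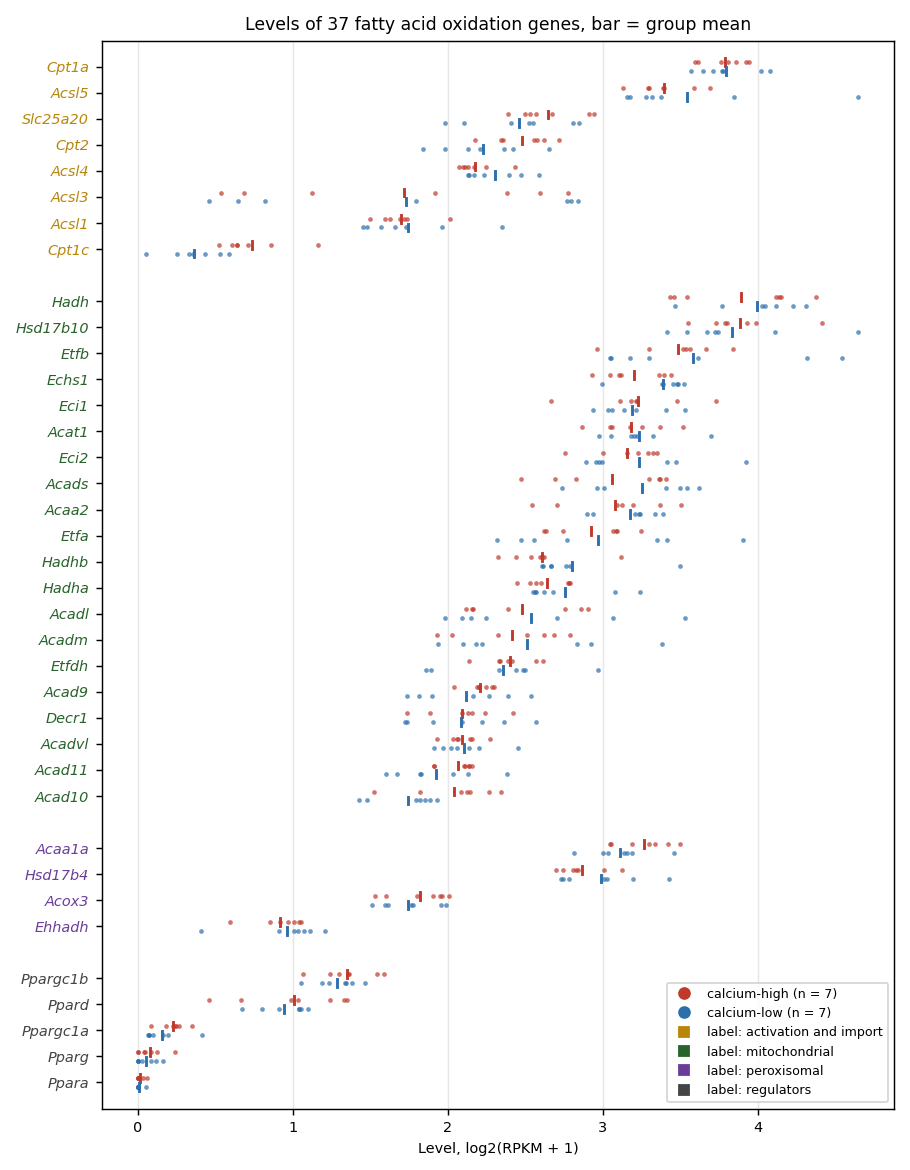
Level of each of the 37 genes in each library on the log2(RPKM + 1) axis, calcium-high above calcium-low, with a bar at each group mean and gene labels coloured by role. The groups of 7 overlap for all 31 genes that reached a mean of 1 RPKM, from Hadh at the top of the mitochondrial block to Acad10 at its foot, and the receptors Ppara and Pparg sit near 0.

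By limma on log2(RPKM + 1), no tested fatty acid oxidation gene differed between calcium-high and calcium-low HSCs past the threshold over all 14 libraries. An alternative fit, limma-voom on the recovered reads of the same libraries, called 2 (Cpt2 and Acad11). Limma on log2(RPKM + 1) called 0 of the 31 tested genes at a Benjamini-Hochberg adjusted p under 0.05, as it called 0 of 9921 genes overall (0%). At an unadjusted p under 0.05 it picked 1 of the 31, Acad10, against 6.74% of all genes. Libraries with the same number deviated together, though only 5 of the 14 correlated best with their own number. The labels do not say that libraries of the same number were matched. With that number as a block limma called 0 of the 31 genes, against 0.917% of all genes. At an unadjusted p under 0.05 the blocked fit picked 4 (Cpt2, Acads, Acad10 and Hadhb, 12.9% of the 31), against 13.9% of all genes. The smallest adjusted p among the 31 was 0.719 without the block and 0.180 with it, both for Acad10.

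The changes of the 31 genes were small and lay around that of all genes. Their log2 fold changes ran from -0.19 to 0.30, with 12 above 0 and 19 below. The median was -0.043, beside -0.029 over all tested genes, of which 42.2% were above 0. By role, the median change was -0.017 for activation and import (2 above 0, 5 below), -0.057 for the mitochondrial genes (7 above, 13 below) and 0.079 for the peroxisomal genes (2 above, 1 below). The 95% interval of a gene's change reached, in the median, 0.30 to either side without the block and 0.24 with it. These intervals leave room for changes of that size in most of the genes: a p that misses the threshold does not show equal levels. In 0 of the 31 genes were the 7 calcium-high libraries all on one side of the 7 calcium-low libraries, against 0.141% of all genes.

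**Figure D2:**
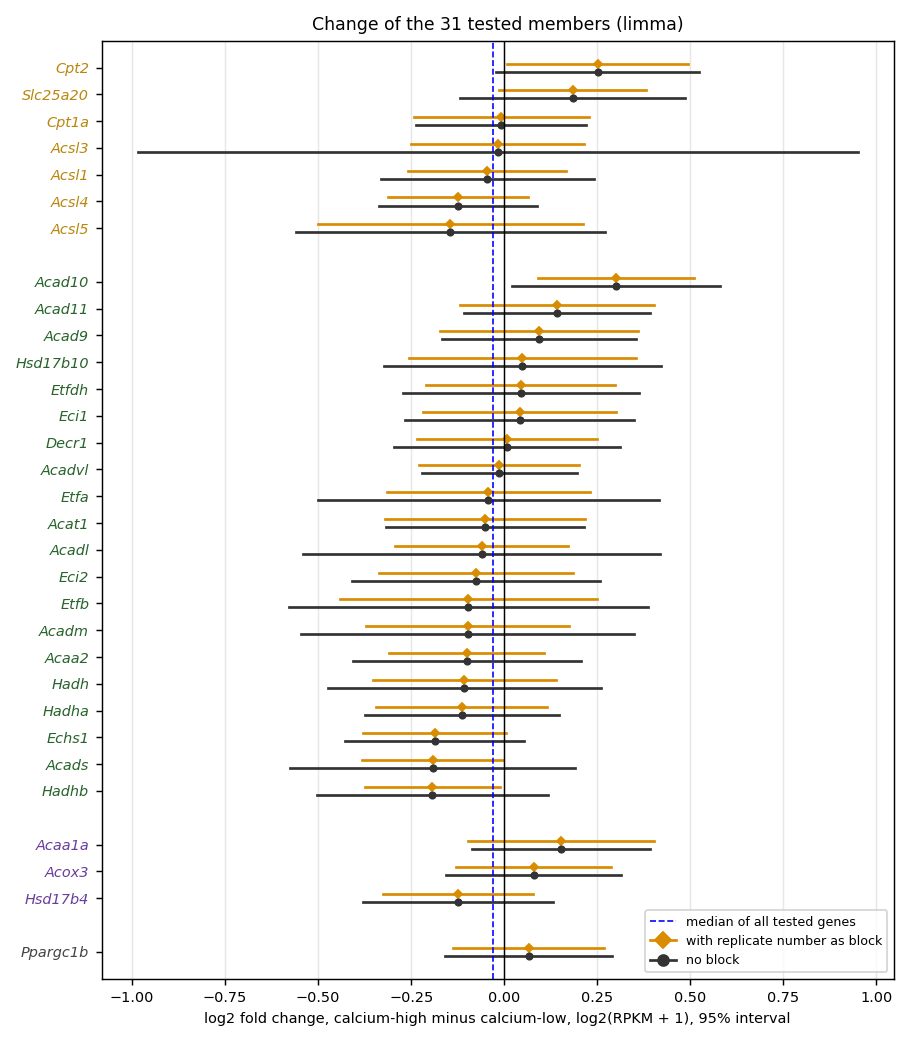
Log2 fold change of each tested gene, calcium-high minus calcium-low, with its 95% interval, without the replicate block (dark) and with it (orange), ordered within each role. The dashed line is the median of all tested genes at -0.029, and Acad10 at 0.30 has the highest change.

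Among the genes of activation and import, the nearest to a difference was Cpt2, which releases the acyl group from carnitine inside the mitochondrion. In replicates 1 to 7, Cpt2 (chromosome 4, 107903981 to 107923610, minus strand, GRCm38) was at 4.96, 3.52, 4.06, 5.58, 5.14, 4.12 and 4.87 RPKM in calcium-high libraries, against 4.34, 3.37, 5.29, 3.61, 4.13, 2.58 and 2.94 RPKM in calcium-low libraries. It averaged 4.61 ± 0.726 RPKM in calcium-high, against 3.75 ± 0.918 RPKM in calcium-low libraries, higher in 6 of 7 pairs of the same number, with a log2 fold change of 0.25 ± 0.13 (SE; limma adjusted p = 0.797, and 0.346 with the block). The groups overlapped, and replicate 3 was the pair that ran the other way. Slc25a20, the carnitine-acylcarnitine carrier, was at 4.93, 6.68, 6.50, 5.36, 4.24, 4.65 and 4.77 RPKM in calcium-high libraries, against 4.76, 6.18, 6.00, 4.84, 4.31, 2.95 and 3.31 RPKM in calcium-low libraries. Its mean was 5.31 ± 0.941 RPKM in calcium-high, against 4.62 ± 1.23 RPKM in calcium-low libraries, higher in 6 of 7 pairs, with overlapping groups (log2 fold change 0.18 ± 0.14, SE; limma adjusted p = 0.949).

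Cpt1a, the liver-type form of the rate-limiting enzyme that loads long acyl chains onto carnitine, had close means in both groups. The calcium-high libraries had 11.1, 13.0, 12.6, 11.3, 13.5, 14.4 and 14.2 RPKM of Cpt1a (chromosome 19, 3322334 to 3385733, plus strand), against 15.2, 15.9, 12.6, 12.7, 12.1, 11.5 and 10.9 RPKM in the calcium-low libraries. The means were 12.9 ± 1.32 RPKM in calcium-high, against 13.0 ± 1.89 RPKM in calcium-low libraries, and the log2 fold change was -0.0083, with a 95% interval of -0.24 to 0.22 (limma adjusted p = 0.999). Within the pairs it was lower in calcium-high in all of replicates 1 to 3, barely so in replicate 3, and higher in 3 of replicates 4 to 7.

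Cpt1c, a paralogue of Cpt1a known mainly from neurons in mice, was too low to be tested, with a mean of 0.487 RPKM. It had 0.812, 0.524, 0.640, 0.559, 0.436, 0.559 and 1.23 RPKM in calcium-high libraries, against 0.258, 0.350, 0.443, 0.190, 0.502, 0.281 and 0.0366 RPKM in calcium-low libraries, from 381 and 159 recovered reads in all. Its values were higher in calcium-high in 6 of 7 pairs and the groups overlapped. In a fit without the filter on low values its log2 fold change was 0.37 ± 0.10 (SE), the largest of the 37 genes in that fit, with a limma adjusted p of 0.269, and 0 of the 37 genes passed, against 0.00549% of all labels. At an unadjusted p under 0.05 that fit picked 2 of the 37 (Cpt1c and Acad10), against 7.56% of all labels. The gene was singled out after its values were seen.

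The 4 acyl-CoA synthetases had log2 fold changes below 0, none past the threshold. Acsl5, which serves mitochondria and the endoplasmic reticulum, was at 7.77, 8.79, 11.0, 9.44, 11.9, 9.49 and 8.81 RPKM in calcium-high libraries, against 13.4, 9.39, 24.0, 8.69, 7.89, 8.95 and 8.02 RPKM in calcium-low libraries. Calcium-low replicate 3, the library with high neutrophil and erythroid markers, had the highest Acsl5 level. The means were 9.60 ± 1.41 RPKM in calcium-high, against 11.5 ± 5.84 RPKM in calcium-low libraries (log2 fold change -0.15 ± 0.20, SE; limma adjusted p = 0.992), and without that library the change was 0.039. The part of those other cells in the Acsl5 level was not tested. Acsl1 averaged 2.26 ± 0.386 RPKM in calcium-high, against 2.42 ± 0.839 RPKM in calcium-low libraries and Acsl4, which prefers arachidonic acid, 3.54 ± 0.414 RPKM in calcium-high, against 3.97 ± 0.645 RPKM in calcium-low libraries, with log2 fold changes of -0.046 and -0.12 (limma adjusted p = 0.998 and 0.952).

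Acsl3, a synthetase of the endoplasmic reticulum and lipid droplets, is listed as 2 copies, and the copy with the higher mean RPKM split by replicate number in both calcium groups. That copy, from 5 to 204 reads per library, had 0.453, 0.606, 1.18, 5.04, 2.77, 5.83 and 4.20 RPKM in calcium-high libraries, against 0.373, 0.766, 0.564, 5.83, 2.48, 6.17 and 5.94 RPKM in calcium-low libraries. Replicates 1 to 3 of both groups lay between 0.373 and 1.18 RPKM and replicates 4 to 7 between 2.48 and 6.17 RPKM, without overlap. This copy has a gene model of 925 bases and the other copy, from 184 to 296 reads per library, one of 3950 bases. The other copy ran the opposite way, between 2.93 and 4.19 RPKM in replicates 1 to 3 and between 1.47 and 2.03 RPKM in replicates 4 to 7. Summed over both copies, Acsl3 was at 5.21 ± 1.62 RPKM in calcium-high, against 5.63 ± 1.91 RPKM in calcium-low libraries. The sum ran from 3.45 to 4.56 RPKM in replicates 1 to 3 and from 4.24 to 7.85 RPKM in replicates 4 to 7, so that the sets overlapped. Such a split of levels by replicate number, in either direction, was seen in 4 of the 31 genes with 1 copy each (Acsl3, Acadl, Acadm and Acads), against 17.1% of all genes.

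Of the mitochondrial genes, Acad10 had the largest positive change and Hadhb and Acads the largest negative ones, each in the same direction in all 7 pairs. Across all genes, 5.53% kept one direction in all 7 pairs, against these 3 of 31. None passed the threshold over all genes in the limma or limma-voom fits of all 14 libraries. Acads and Hadhb were outside the rule for genes given in full and were added after their values were seen.

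Acad10 encodes an acyl-CoA dehydrogenase family member with an unsettled physiological substrate. In replicates 1 to 7, Acad10 (chromosome 5, 121621026 to 121660514, minus strand) was at 3.41, 2.53, 1.87, 3.80, 3.24, 3.35 and 4.07 RPKM in calcium-high libraries, against 1.78, 2.53, 1.68, 2.81, 2.47, 2.70 and 2.62 RPKM in calcium-low libraries. The pair of replicate 2 was level at the digits given, and the groups overlapped. It averaged 3.18 ± 0.753 RPKM in calcium-high, against 2.37 ± 0.450 RPKM in calcium-low libraries, a log2 fold change of 0.30 ± 0.13 (SE; limma unadjusted p = 0.0362, adjusted p = 0.719, and 0.180 with the block).

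Acads, the short-chain acyl-CoA dehydrogenase (chromosome 5, 115110299 to 115119346, minus strand), was at 6.08, 4.53, 5.46, 9.27, 9.34, 9.60 and 8.83 RPKM in calcium-high libraries, against 6.78, 7.03, 5.65, 10.6, 11.3, 9.61 and 10.3 RPKM in calcium-low libraries. Its level was higher in replicates 4 to 7 than in replicates 1 to 3 of both groups, and within each pair the calcium-high library was the lower one, though barely in replicate 6. The means were 7.59 ± 2.15 RPKM in calcium-high, against 8.75 ± 2.22 RPKM in calcium-low libraries (log2 fold change -0.19 ± 0.18, SE; limma adjusted p = 0.979, and 0.352 with the block).

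Hadhb encodes the beta subunit of the mitochondrial trifunctional protein, which carries the long-chain thiolase (chromosome 5, 30155248 to 30184593, plus strand). It was at 5.10, 5.14, 7.66, 4.42, 4.01, 5.03 and 4.81 RPKM in calcium-high libraries, against 5.79, 5.33, 10.3, 5.90, 5.11, 5.08 and 5.33 RPKM in calcium-low libraries. Replicate 3 was the highest library in both groups, and its calcium-low library is the one with high neutrophil and erythroid markers. The means were 5.17 ± 1.18 RPKM in calcium-high, against 6.12 ± 1.87 RPKM in calcium-low libraries (log2 fold change -0.19 ± 0.15, SE; limma adjusted p = 0.941, and 0.324 with the block). Without calcium-low replicate 3 the Hadhb change was -0.076, and without both libraries of replicate 3 it was -0.16 with the block. Its partner Hadha, the alpha subunit with the hydratase and dehydrogenase, averaged 5.26 ± 0.604 RPKM in calcium-high, against 5.87 ± 1.45 RPKM in calcium-low libraries, lower in calcium-high in 5 of 7 pairs (log2 fold change -0.11; limma adjusted p = 0.991).

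**Figure D3:**
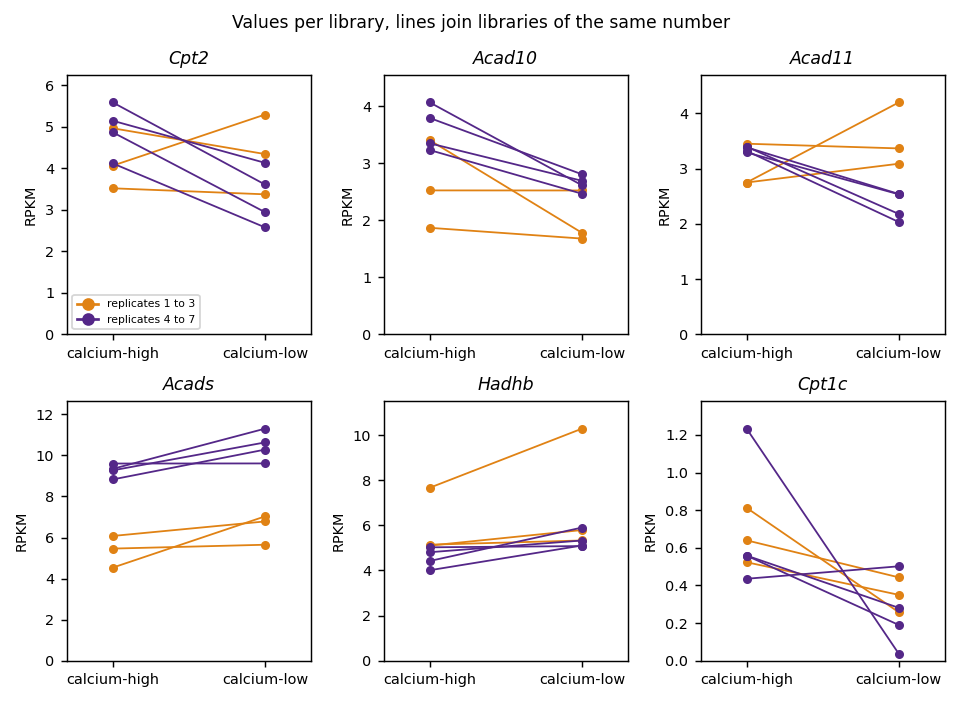
RPKM of Cpt2, Acad10, Acad11, Acads, Hadhb and Cpt1c in each library, calcium-high left and calcium-low right in each panel, with lines joining libraries of the same number. Lines fall to the right for Acad10 and rise to the right for Acads and Hadhb in all 7 pairs, and the lines of Acad11 cross between replicates 1 to 3 (orange) and 4 to 7 (purple).

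The best-expressed mitochondrial genes differed by less than the spread between libraries. Hadh, the medium- and short-chain hydroxyacyl-CoA dehydrogenase, was at 10.7, 9.99, 9.80, 16.3, 19.8, 16.6 and 16.8 RPKM in calcium-high libraries, against 17.7, 12.6, 10.0, 18.9, 16.4, 15.3 and 15.5 RPKM in calcium-low libraries, with means of 14.3 ± 4.02 RPKM in calcium-high, against 15.2 ± 3.02 RPKM in calcium-low libraries (limma adjusted p = 0.993). Hsd17b10, a dehydrogenase of branched and short chains that is also a subunit of mitochondrial RNase P, was at 14.2, 14.8, 10.7, 12.9, 20.3, 12.2 and 12.8 RPKM in calcium-high libraries, against 24.1, 16.3, 12.4, 10.6, 12.2, 9.63 and 11.8 RPKM in calcium-low libraries, with means of 14 ± 3.07 RPKM in calcium-high, against 13.8 ± 4.96 RPKM in calcium-low libraries (limma adjusted p = 0.998). Both genes ranged more widely within each group than the group means lay apart. Echs1, the short-chain enoyl-CoA hydratase, was at 7.66, 7.61, 6.63, 9.83, 9.50, 7.25 and 9.28 RPKM in calcium-high libraries, against 10.2, 9.46, 9.42, 10.1, 10.5, 6.98 and 9.97 RPKM in calcium-low libraries. It averaged 8.25 ± 1.26 RPKM in calcium-high, against 9.51 ± 1.18 RPKM in calcium-low libraries, lower in calcium-high in 6 of 7 pairs, with overlapping groups (log2 fold change -0.19 ± 0.11, SE; limma adjusted p = 0.868).

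The medium- and long-chain acyl-CoA dehydrogenases showed wide spreads and small changes. Acadm, the medium-chain enzyme, averaged 4.44 ± 1.18 RPKM in calcium-high, against 5.06 ± 2.41 RPKM in calcium-low libraries, Acadl, a long-chain enzyme, 4.71 ± 1.40 RPKM in calcium-high, against 5.26 ± 2.81 RPKM in calcium-low libraries, and Acadvl, the very-long-chain enzyme, 3.28 ± 0.325 RPKM in calcium-high, against 3.34 ± 0.576 RPKM in calcium-low libraries. Their log2 fold changes were -0.098, -0.061 and -0.013. Acad9, which is also an assembly factor of respiratory complex I, averaged 3.63 ± 0.268 RPKM in calcium-high, against 3.41 ± 0.927 RPKM in calcium-low libraries, and Acad11, which acts on long chains, some of them hydroxylated, 3.19 ± 0.307 RPKM in calcium-high, against 2.85 ± 0.759 RPKM in calcium-low libraries, with log2 fold changes of 0.095 and 0.14. None of these 5 passed (limma adjusted p of 0.955 or more).

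Electron transfer from the dehydrogenases runs through the flavoprotein subunits Etfa and Etfb and the membrane enzyme Etfdh. Etfa averaged 6.70 ± 1.33 RPKM in calcium-high, against 7.44 ± 3.65 RPKM in calcium-low libraries, Etfb 10.4 ± 2.07 RPKM in calcium-high, against 12.0 ± 6.14 RPKM in calcium-low libraries and Etfdh 4.30 ± 0.584 RPKM in calcium-high, against 4.27 ± 1.41 RPKM in calcium-low libraries, with log2 fold changes of -0.043, -0.096 and 0.044. The highest levels of the flavoprotein subunits were in calcium-low libraries, 13.95 RPKM for Etfa, in replicate 3, and 22.3 RPKM for Etfb, in replicate 1. The isomerases Eci1 and Eci2 and the reductase Decr1, which handle unsaturated chains, had log2 fold changes of 0.041, -0.076 and 0.0073. The thiolases Acaa2 and Acat1 had log2 fold changes of -0.10 and -0.052. Their adjusted p-values (limma) ran from 0.992 to 0.999.

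None of the tested peroxisomal genes passed the threshold. Acaa1a, the peroxisomal thiolase, was at 8.84, 7.24, 7.31, 8.11, 9.72, 9.09 and 10.3 RPKM in calcium-high libraries, against 6.02, 9.97, 7.78, 8.09, 7.90, 7.00 and 7.17 RPKM in calcium-low libraries. Its mean was 8.66 ± 1.17 RPKM in calcium-high, against 7.70 ± 1.22 RPKM in calcium-low libraries, higher in 5 of 7 pairs (log2 fold change 0.15 ± 0.11, SE; limma adjusted p = 0.929). Hsd17b4, the D-bifunctional protein of the inner steps of the cycle, was at 6.15, 6.00, 7.70, 6.09, 7.03, 5.70 and 5.47 RPKM in calcium-high libraries, against 8.14, 7.05, 9.76, 7.14, 5.68, 5.87 and 5.62 RPKM in calcium-low libraries. It averaged 6.31 ± 0.786 RPKM in calcium-high, against 7.04 ± 1.52 RPKM in calcium-low libraries, lower in 6 of 7 pairs (log2 fold change -0.12 ± 0.12, SE; limma adjusted p = 0.986). Acox3, an oxidase of branched chains, averaged 2.56 ± 0.446 RPKM in calcium-high, against 2.37 ± 0.430 RPKM in calcium-low libraries, and Ehhadh, the L-bifunctional protein, was below the level for testing at 0.899 ± 0.196 RPKM in calcium-high, against 0.975 ± 0.316 RPKM in calcium-low libraries.

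Of the PPAR receptors, which as partners of RXR switch on fatty acid oxidation genes, only Ppard was above a trace, with a mean of 0.996 RPKM that just missed the level for testing. Its listed copies have the same length, and the copy used was at 0.985, 0.588, 0.377, 1.04, 1.51, 1.54 and 1.36 RPKM in calcium-high libraries, against 1.07, 0.741, 0.594, 1.05, 1.14, 0.882 and 1.05 RPKM in calcium-low libraries. It averaged 1.06 ± 0.452 RPKM in calcium-high, against 0.934 ± 0.203 RPKM in calcium-low libraries, and the copies summed to 2.12 ± 0.823 RPKM in calcium-high, against 1.77 ± 0.310 RPKM in calcium-low libraries (log2 fold change of the sum 0.13 ± 0.16, SE; limma adjusted p = 0.991). The lowest 2 calcium-high values were those of replicates 2 and 3, and the groups overlapped. Ppara had 0 reads in 10 of 14 libraries. The other 4 were calcium-high replicates 2, 3 and 6, with 1, 6 and 15 reads, and calcium-low replicate 7, with 14 reads. Pparg, the adipocyte receptor, had 0 to 20 reads per library, 41 in all over calcium-high and 22 over calcium-low libraries, and was at 0 in 5 libraries.

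The coactivators PGC-1 alpha and PGC-1 beta drive mitochondrial and oxidation genes together with the PPARs. Ppargc1a was at 0.182, 0.171, 0.0600, 0.199, 0.133, 0.273 and 0.187 RPKM in calcium-high libraries, against 0.331, 0.147, 0.0697, 0.0472, 0.117, 0.0523 and 0.0499 RPKM in calcium-low libraries, below the level for testing. It was higher in calcium-high in all of replicates 4 to 7 and in replicate 2, and the highest value was calcium-low replicate 1. Ppargc1b was at 1.37, 1.09, 1.57, 1.46, 1.91, 2.01 and 1.56 RPKM in calcium-high libraries, against 1.35, 1.28, 1.08, 1.61, 1.76, 1.53 and 1.54 RPKM in calcium-low libraries. It averaged 1.57 ± 0.313 RPKM in calcium-high, against 1.45 ± 0.228 RPKM in calcium-low libraries, higher in 5 of 7 pairs, with a log2 fold change of 0.065 ± 0.11 (SE; limma adjusted p = 0.993).

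On the RPKM scale the list moved with the replicate number, as did the median of all tested genes. Within pairs of the same number, the median change of the 31 genes was -0.26, -0.14 and -0.19 in replicates 1, 2 and 3, and 0.0031, 0.23, 0.17 and 0.11 in replicates 4 to 7. Over all tested genes it was -0.25, -0.11 and -0.22 in replicates 1, 2 and 3, and 0.025, 0.12, 0.16 and 0.10 in replicates 4 to 7. The genes of the list thus lay below 0 where most genes did and above 0 where most genes did. The largest gap between list and all genes was 0.11, in replicate 5. In replicates 1 to 7, reads in listed genes made up 25.96%, 25.04%, 25.66%, 28.37%, 30.71%, 29.21% and 28.7% of the library total in calcium-high libraries. The calcium-low libraries had 32.49%, 27.41%, 32.11%, 28.34%, 28.04%, 26.5% and 26.65%. RPKM is scaled by the library total, and the part of this share in the changes was not tested.

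**Figure D4:**
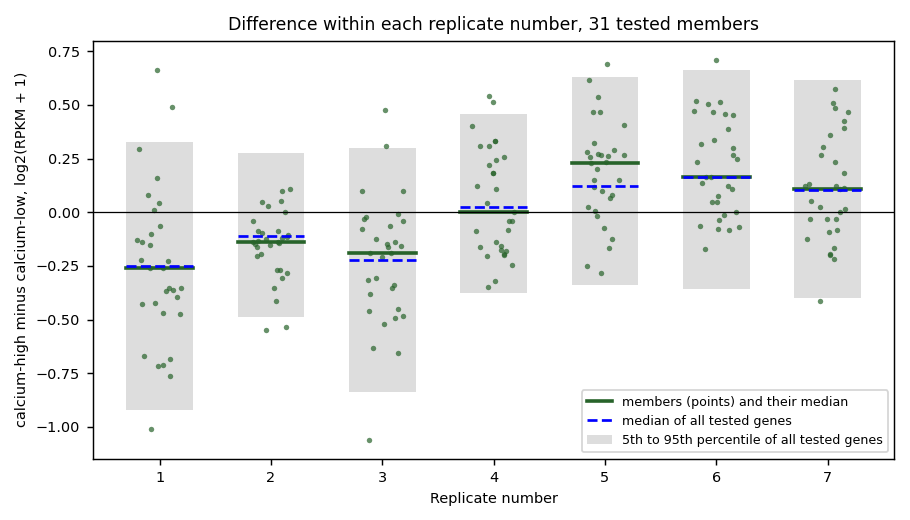
Difference of each of the 31 tested genes within each replicate number, calcium-high minus calcium-low on the log2(RPKM + 1) scale, with the median of the 31 (solid), the median of all tested genes (dashed) and the 5th to 95th percentile of all genes (grey). Both medians are below 0 for replicates 1 to 3, and above 0 for replicates 4 to 7.

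Replicates 1 to 3 and 4 to 7 differ in depth, though the labels do not call them batches, so they were also fitted apart. In replicates 1 to 3 alone the median of the list was -0.24, beside -0.20 for all genes, and limma called 0 of the 31, as it did 0% of all genes. At an unadjusted p under 0.05 it picked 2 of the 31 there, against 11.6% of all genes. In replicates 4 to 7 alone the median was 0.14, beside 0.11 for all genes. There 3 of the 31 passed, against 8.14% of all genes, and all 3 were higher in calcium-high, as were 6.36% of all genes. They were Cpt2 (log2 fold change 0.47, adjusted p = 0.0425), Acad10 (0.34, adjusted p = 0.0415) and Acad11 (0.39, adjusted p = 0.0196), by limma. With the replicate block in replicates 4 to 7, 2 of them passed (Cpt2 and Acad11), against 6.61% of all genes in either direction and 5.06% higher.

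These calls depended on the scaling. Median-of-ratios scaling moved the median of all genes in replicates 4 to 7 to -0.024, from 0.11 without it. Of the calls over all genes, 78.1% were higher in calcium-high without that scaling and 34.1% with it. With it 2 of the 31 passed, against 7.02% of all genes, and both were lower in calcium-high (Acads and Hadhb), as were 4.63% of all genes. Cpt2, Acad10 and Acad11 stayed above 0 there without passing, at log2 fold changes of 0.33, 0.21 and 0.27 (limma adjusted p = 0.127, 0.236 and 0.0769). Over all 14 libraries the same scaling called 0 of the 31 by limma, against 0.0403% of all genes, and picked 2 at an unadjusted p under 0.05, against 8.09%. Limma-voom on the recovered reads, with library quality weights of 0.190 to 0.933 for replicates 1 to 3 and of 0.815 to 2.61 for replicates 4 to 7, called 2 of the 31, against 7.11% of all genes. Both were higher in calcium-high, as were 4.5% of all genes (Cpt2, adjusted p = 0.0443, and Acad11, adjusted p = 0.0266).

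Acad11 shows the split. It was at 2.75, 3.45, 2.75, 3.39, 3.29, 3.40 and 3.32 RPKM in calcium-high libraries (chromosome 9, 104063377 to 104127725, plus strand), against 4.20, 3.37, 3.09, 2.54, 2.54, 2.18 and 2.03 RPKM in calcium-low libraries. Calcium-high was the higher one in all of replicates 4 to 7, where the groups did not overlap, and in 1 of replicates 1 to 3. Groups did not overlap in replicates 4 to 7 for 7 of the 31 genes (Acads, Acad9, Acad10, Acad11, Hadhb, Hsd17b10 and Acaa1a), against 16.9% of all genes. In replicates 1 to 3 they did not overlap for 6 (Acadm, Acad9, Echs1, Eci2, Etfa and Acat1), against 20.3% of all genes.

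The difference of the change between both sets of replicates was tested directly. Without the block limma called 0 of the 31 genes, and 0% of all genes. At an unadjusted p under 0.05 it picked 13 of the 31, against 28.6% of all genes. With the block it called 1 of the 31, Etfa, against 1.66% of all genes. The median difference was 0.36 over the 31 genes and 0.31 over all tested genes, of which 89.9% were above 0. It was not fitted after median-of-ratios scaling. Etfa (chromosome 9, 55454508 to 55512243, minus strand) was at 7.35, 7.46, 8.49, 5.69, 7.53, 5.21 and 5.15 RPKM in calcium-high libraries, against 9.65, 9.20, 13.95, 4.89, 5.82, 4.54 and 3.99 RPKM in calcium-low libraries. Its log2 fold change was 0.24 over replicates 4 to 7 and -0.43 over replicates 1 to 3, a difference of 0.67 (limma adjusted p = 0.0481 with the block and 0.114 without it). The highest Etfa value was again that of calcium-low replicate 3. Without both libraries of replicate 3 the difference was 0.55, with an adjusted p of 0.101 by limma with the block, and 0 of the 31 genes passed.

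**Figure D5:**
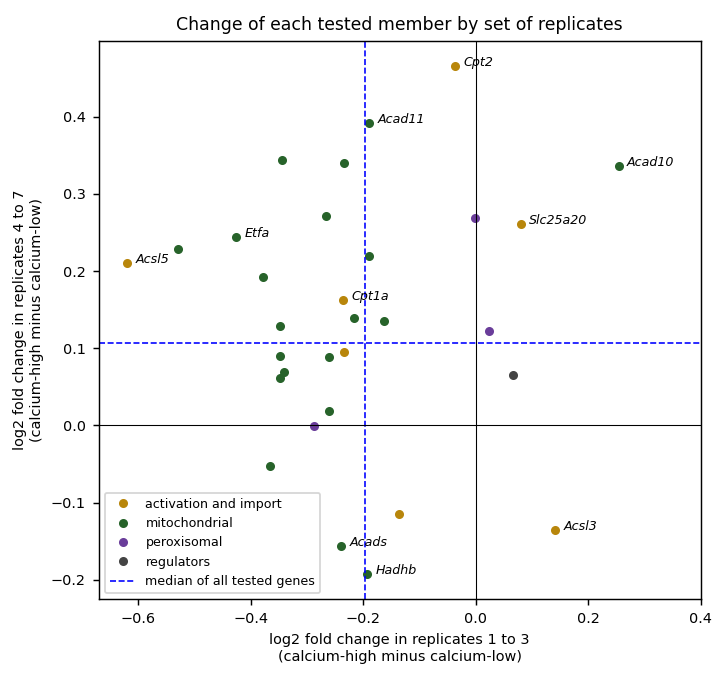
Log2 fold change (calcium-high minus calcium-low) of each tested gene in replicates 4 to 7 against that in replicates 1 to 3, coloured by role, with dashed lines at the medians of all tested genes (0.11 and -0.20). Most genes lie left of 0 on the horizontal axis and above 0 on the vertical axis, and Acad10, Slc25a20, Acox3 and Ppargc1b are above 0 on both.

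Promoters are shown for the 3 genes that kept one direction in all 7 pairs and for Cpt2, which passed in replicates 4 to 7. The sequences are RefSeq promoters of GRCm38.p6, which matched 31 of the 37 genes, given 5′ to 3′ on the gene's strand and ending at the base before the start site. Hadhb is given as the 85 bases between its start and that of Hadha, which runs the other way, in the GENCODE annotation. Capitals mark matches, on either strand, to an ETS site (CCGGAAG) or a GC box (GGGCGG).
Cpt2, chr4:107923590-107923839, minus strand: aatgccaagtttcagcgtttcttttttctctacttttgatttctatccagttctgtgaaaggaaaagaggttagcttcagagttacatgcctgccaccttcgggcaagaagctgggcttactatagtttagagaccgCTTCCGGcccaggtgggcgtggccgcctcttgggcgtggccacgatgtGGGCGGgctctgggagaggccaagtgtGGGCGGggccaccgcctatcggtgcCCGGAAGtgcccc
Acad10, chr5:121660511-121660760, minus strand: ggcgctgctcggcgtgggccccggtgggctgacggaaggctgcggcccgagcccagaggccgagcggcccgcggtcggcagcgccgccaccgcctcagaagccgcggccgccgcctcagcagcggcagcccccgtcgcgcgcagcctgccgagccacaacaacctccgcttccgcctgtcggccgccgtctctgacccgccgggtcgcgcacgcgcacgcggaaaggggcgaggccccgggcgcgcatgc
Acads, chr5:115119347-115119596, minus strand: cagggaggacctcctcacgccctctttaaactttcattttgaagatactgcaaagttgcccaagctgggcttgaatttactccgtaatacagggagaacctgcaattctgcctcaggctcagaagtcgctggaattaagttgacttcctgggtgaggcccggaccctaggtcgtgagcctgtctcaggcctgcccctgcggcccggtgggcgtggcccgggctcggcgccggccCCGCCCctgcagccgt
Hadha to Hadhb, chr5:30155163-30155247, plus strand: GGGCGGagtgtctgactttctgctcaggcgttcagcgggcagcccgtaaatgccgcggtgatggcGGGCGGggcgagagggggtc
The Cpt2 promoter held 2 ETS sites, one ending 7 bases before the RefSeq start, and 2 GC boxes. The GENCODE spans reach 107923610 for Cpt2 and 121660514 for Acad10, so the last bases of both stretches lie inside them. For Cpt2 these include the ETS site nearest the start. The Acads promoter held 1 GC box and the stretch between Hadha and Hadhb 2. No searched motif lies whole in the Acad10 stretch, which has 79.6% G and C.

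Matches to 7 motifs were sought on both strands of the window from 250 bases before to 50 after each start, in the 31 genes with a promoter and in all 32851 promoters of the table. A gene of the list counted if any of its promoters matched (34 promoters for the 31 genes). The share over the table is of single promoters, so these measures are not alike. The table was not limited to genes tested here. AGGTCA, the unit that nuclear receptors bind, was in 19.4% of the genes and in 16.3% of all promoters. The repeat bound by PPAR with RXR, AGGTCA then any 1 base then AGGTCA again, was in 0% of the genes and in 0.0396% of all promoters. The NRF1 site, GCGCA followed directly by TGCGC, was in 9.68% of the genes (Acad10, where it runs across the start, Etfdh and Ppara), against 0.971% of all promoters. CCGGAAG was in 6.45% (Cpt2 and Slc25a20), against 8.86%, and the cyclic AMP response element TGACGTCA in 0%, against 1.79%. CCAAT was in 51.6% of the genes, against 37.4% of promoters, and GGGCGG in 80.6%, against 35.7%. The promoters of the list had a median G and C content of 59.6%, against 52.4% over the table. A match of letters is not a bound site, and no match says only that these letters are absent from the window.

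Neighbouring pathways gave 0 calls as well. Of 18 genes for fatty acid uptake, storage and lipolysis 11 were tested, of 38 other oxidation and peroxisome genes 26, of 21 PPAR partners and targets 15 and of 15 fatty acid synthesis genes 12. None of these passed by limma in either direction, with or without the block, against 0% and 0.917% of all genes. At an unadjusted p under 0.05 limma picked 1, 1, 0 and 1 of them without the block, against 6.74% of all genes, and 2, 2, 0 and 1 with it, against 13.9%. The median log2 fold changes were 0.078, 0.060, 0.0051 and 0.031 in that order, beside -0.029 for all genes. The lowest p was that of Fabp5, a cytosolic fatty acid carrier, chosen after its values were seen. Fabp5 averaged 7.97 ± 2.40 RPKM in calcium-high, against 11.9 ± 1.93 RPKM in calcium-low libraries, lower in calcium-high in 7 of 7 pairs (limma adjusted p = 0.368, and 0.0733 with the block).

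Levels of the genes correlated weakly between libraries. Over the 14 libraries, after taking out the group means, the median correlation of the 465 gene pairs was 0.26, beside 0.15 over all pairs of tested genes. It was 0.35 among the mitochondrial genes and 0.30 among the 7 of activation and import, but -0.15 among the 3 peroxisomal genes. These points share libraries, depth and the difference between replicates 1 to 3 and 4 to 7. Annotated protein-coding genes overlap Acsl3, Acsl5, Acad11, Acadvl, Acaa1a, Echs1, Etfb, Etfdh and Hadha. For Acsl3 (Utp14b), Acad11 (Gm28305) and Etfb (Gm45233) such a gene lies on the same strand, where strand handling would not part the reads. For the others strand handling was not given, so reads of the overlapping genes cannot be told apart there either.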

How the data were processed

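Total RNA from 100 sorted HSCs per library was reverse transcribed with not-so-random primers and made into Nextera XT libraries for NextSeq sequencing, per the labels' protocols. The values deposited by the authors, 1 file per library, are read as RPKM, since within each gene they are whole multiples of a step. Set against gene length, that step gave the same scale in 83 of 600 genes with 1 annotated transcript. The library totals, the shares of reads in listed genes and the RPKM that 3 reads correspond to rest on this scale. Per the submitters' processing notes, the builds were GRCm38 and mm10 and a tool named was edgeR, with no role given. Aligner, counting tool, annotation and strand handling are not given in the sources used here. Library totals behind the RPKM were 14.3 to 37.2 M reads, of which 25.0% to 32.5% lay in listed genes.

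Each file listed 48737 labels. Of these, 23 had become serial numbers and were left out. Whole reads were recovered for all 9848 genes above 0 in every library that reached a mean of 1 RPKM (within 0.02 reads), against 0 of 500 jittered genes. Genes not resolved at first were tried again with finer steps. This was not done for the jittered genes, so these counts are not at like settings. Limma 3.58.1 (R 4.3.3) was run on log2(RPKM + 1), its variance prior following the mean, for the 9921 genes that averaged at least 1 RPKM. Changes are calcium-high minus calcium-low. A gene was called at a Benjamini-Hochberg adjusted p under 0.05 over all tested genes. A fold change on this scale understates the change of low genes. The design had allowed for a count test. It was not run because the values were read as RPKM, and limma-voom on the recovered reads was an alternative.

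Same-numbered libraries deviated together from their group means, with correlations of 0.384 to 0.715 in all 7 pairs, all over 0.1, so the replicate number was also fitted as a block. Of the 14 libraries, 5 correlated best with their own number. No replicates agreed within sampling noise (chi-square per gene of 4.59 or more). Tested on simulated data for calcium-high against calcium-low with 9525 genes, the fit without the block recovered 90.2% of 102 genes changed 2-fold and 100% of 86 changed 4-fold, with 11 false calls. The simulated counts had the same dispersion for all genes, and no difference by replicate number, by set of replicates or in single libraries. They therefore cannot give the recovery in the real libraries, which differed in these ways.

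Values in every library are given for Cpt1a, the PPAR and PGC-1 genes and, in each role, the 2 genes with the highest mean and the 2 with the smallest p. The members, gene lists and tests were chosen with earlier results of these data known. Alternatives were other scaling, pseudocounts of 0.1 and 5, no filter, copies summed, sets of replicates apart, and leaving out libraries. Python 3.11.15 was used for tables (pandas 2.3.3, numpy 2.4.6) and figures (matplotlib 3.10.9).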

Additional observations from a re-analysis of the deposited data

Results flagged for a closer look

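Of 38 groups of 7 libraries checked, for 19 of the genes given in full, 6 held a library far from the others. Chance alone marks about 1 group in 20. Hadhb was checked though it was added after its values were seen, so that rate is only a rough guide. Acsl5 was at 24.0 RPKM in calcium-low replicate 3, where the neutrophil and erythroid markers were also highest. Hadhb peaked in replicate 3 of both groups, with 7.66 RPKM for calcium-high and 10.3 RPKM for calcium-low. Echs1 was at 6.98 RPKM in calcium-low replicate 6, the lowest of its group. Ppargc1a reached 0.331 RPKM in calcium-low replicate 1, and Ppara 0.0354 RPKM in calcium-low replicate 7, where the other calcium-low libraries had no Ppara read.

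The change of Etfa differed between replicates 4 to 7 and replicates 1 to 3 by 0.67 on the log2 scale with the replicate block (limma adjusted p = 0.0481), and by the same amount with an adjusted p of 0.114 without it. Without both libraries of replicate 3 the difference was 0.55 (adjusted p = 0.101, limma with the block).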

How the results depend on the processing

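The count of genes called over all genes, 0 without the block, stayed at 0 with either pseudocount, with copies summed, in replicates 1 to 3 alone and with the block and no filter. It was 91 with the replicate block, 91 with the block and copies summed, 328 with the block after median-of-ratios scaling, 4 with that scaling alone, 1 with no filter, 705 with limma-voom, 808 in replicates 4 to 7, 656 there with the block and 696 there with median-of-ratios scaling. Leaving out libraries gave 0 to 119 without the block (101 without calcium-high replicate 3, 20 without calcium-low replicate 3, and 119 without both) and, with it, 8, 3, 302, 12 and 2 without replicates 1, 2, 3, 5 and 6 and 0 without 4 or 7. Among the 31 fatty acid oxidation genes, calls stayed at 0 whichever library or pair was left out. They came to 2 with limma-voom, 3 in replicates 4 to 7, 2 there with the block and 2 there with median-of-ratios scaling. The cause was not tested.

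The median change of the 31 genes was -0.24 in replicates 1 to 3 alone and ran from -0.079 to 0.031 when libraries were left out. Its gap to the median of all genes ran from -0.040 to 0.043 over 37 fits. The difference between sets of replicates called 165 genes with the block, 1 of them among the 31 (Etfa), against 0 without it and 0 with the block but without replicate 3.

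Single genes below the threshold changed sign in some fits. In replicates 4 to 7 alone, with or without the block, the change was 0.21 for Acsl5, 0.16 for Cpt1a, 0.069 for Hadh and 0.24 for Etfa. There with median-of-ratios scaling it was 0.058 for Acsl5, 0.0059 for Cpt1a, 0.10 for Etfa and -0.041 for Ppargc1b. With limma-voom it was 0.066 for Acsl5, 0.066 for Cpt1a and 0.13 for Etfa. In replicates 1 to 3 alone it was -0.036 for Cpt2, -0.34 for Hsd17b10, -0.0015 for Acaa1a and -0.19 for Acad11. Leaving out libraries without the block gave -0.21 to 0.039 for Acsl5, -0.046 to 0.039 for Cpt1a, -0.039 to 0.18 for Hsd17b10 and -0.15 to 0.11 for Etfa. With the block it gave 0.0071 for Acsl5 without replicate 3, 0.062, 0.036 and 0.017 for Cpt1a without replicates 1, 2 and 4, -0.058 for Hsd17b10 without replicate 5, and 0.0083 and 0.059 for Etfa without replicates 1 and 3. The cause was not tested. The alternatives without replicate 3 (with no block, or for the difference between sets), and those that pair the block with no filter, summed copies or replicates 4 to 7, were chosen after seeing the data, as was median-of-ratios scaling in replicates 4 to 7. Depth limits the low regulators and Cpt1c.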
